A study of Mus musculus with 12 samples.

Results

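The 8 genes described here belong to hepatic cholesterol synthesis and its feedback control: Srebf2, the enzyme genes Hmgcs1, Mvd, Sqle, Nsdhl and Dhcr7, and the sterol sensors Insig1 and Insig2. They were picked by gene symbol, with earlier results of the comparison between dam genotypes in view, so their differences between the groups are given as a description and no p-value is read for them. All 8 were measured, each by 1 probe set, among 22206 probe sets that are not controls, of which 19572 carry 1 gene symbol. Liver RNA of 12 adult male C57BL/6J mice was hybridised to 1 expression array per mouse, and each value is a log2 signal, so that a difference of 1 is a doubling. In 6 mice the dam was wild type (WT; arrays 1 to 6, the WT-dam group), and in the other 6 she lacked uncoupling protein 1 (UCP1-KO; arrays 7 to 12, the UCP1-KO-dam group). UCP1 is the mitochondrial protein by which brown fat turns fuel into heat, and the series asks how brown fat thermogenesis of the mother bears on glucose tolerance of her sons. The sires were heterozygous for both kinds of dam, and all 12 offspring are labelled heterozygous, so the groups share their own genotype. The parent that passed on the allele lacking Ucp1 cannot be told apart from the genotype of the dam. Age was 4 to 5 months at 23 °C on standard chow. Litter, batch and hour of sampling are not given in the labels, so a p-value here reflects variation among animals that could include littermates.

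Cholesterol is built from acetyl-CoA through mevalonate, isoprenoids, squalene and a series of sterols. When sterols in the membrane of the endoplasmic reticulum run low, the escort protein SCAP carries the transcription factor SREBP-2 to the Golgi, where proteases release its active part, which then raises transcription of the synthesis enzymes. INSIG proteins hold SCAP in the endoplasmic reticulum when sterols are plentiful and so restrain the pathway. Insig1 is itself a target of SREBP, while the liver also makes a transcript of Insig2 that is known to fall with insulin.

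The RNA had the profile of liver. The 9 measured hepatocyte markers, such as Alb, averaged 18.00 to 18.23 in the WT-dam group and 18.10 to 18.27 in the UCP1-KO-dam group. None of the genes on the 9 marker lists passed limma's test (Benjamini-Hochberg adjusted p under 0.05), and 5 had an unadjusted p under 0.05, 3 of them among 6 sinusoidal endothelial markers. Over all probe sets 13.1% had an unadjusted p under 0.05. The 3 endothelial markers went both ways, with Stab2 at -0.74 and Dnase1l3 at -0.52 but Lyve1 at 0.94 (log2, UCP1-KO dams minus WT dams). The median of the negative control probes was 6.14 to 6.62 on the arrays of the WT-dam group and 5.96 to 6.36 on those of the UCP1-KO-dam group, and every member lay above it on all 12 arrays. Over all probe sets, 8 passed the test, 0.0360% of those tested, with 7 lower (0.0315%) and 1 higher (0.00450%) in the UCP1-KO-dam group. The median difference over all probe sets was 0.03, and 43.2% lay below 0.

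All 8 members had a lower mean in the livers of the UCP1-KO-dam group, with log2 differences (UCP1-KO dams minus WT dams) from -0.85 for Insig2 to -0.11 for Insig1 and a median of -0.44. Since the members were chosen with this contrast known, nothing is read from that count. The number of members past an adjusted p of 0.05 in the limma fit was 0 of 8, against 0.0360% of all probe sets, and 3 of 8 had an unadjusted p under 0.05, against 13.1%. The choice of the members used this contrast, so nothing is read from these counts either. The sizes formed a graded series, from Insig2 and Dhcr7 over Mvd and Nsdhl, the 4 below -0.5, to Srebf2 with -0.36 and Hmgcs1, Sqle and Insig1 with -0.19, -0.12 and -0.11. A difference of -0.5 or lower was found at 2.83% of all probe sets.

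**Figure D1:**
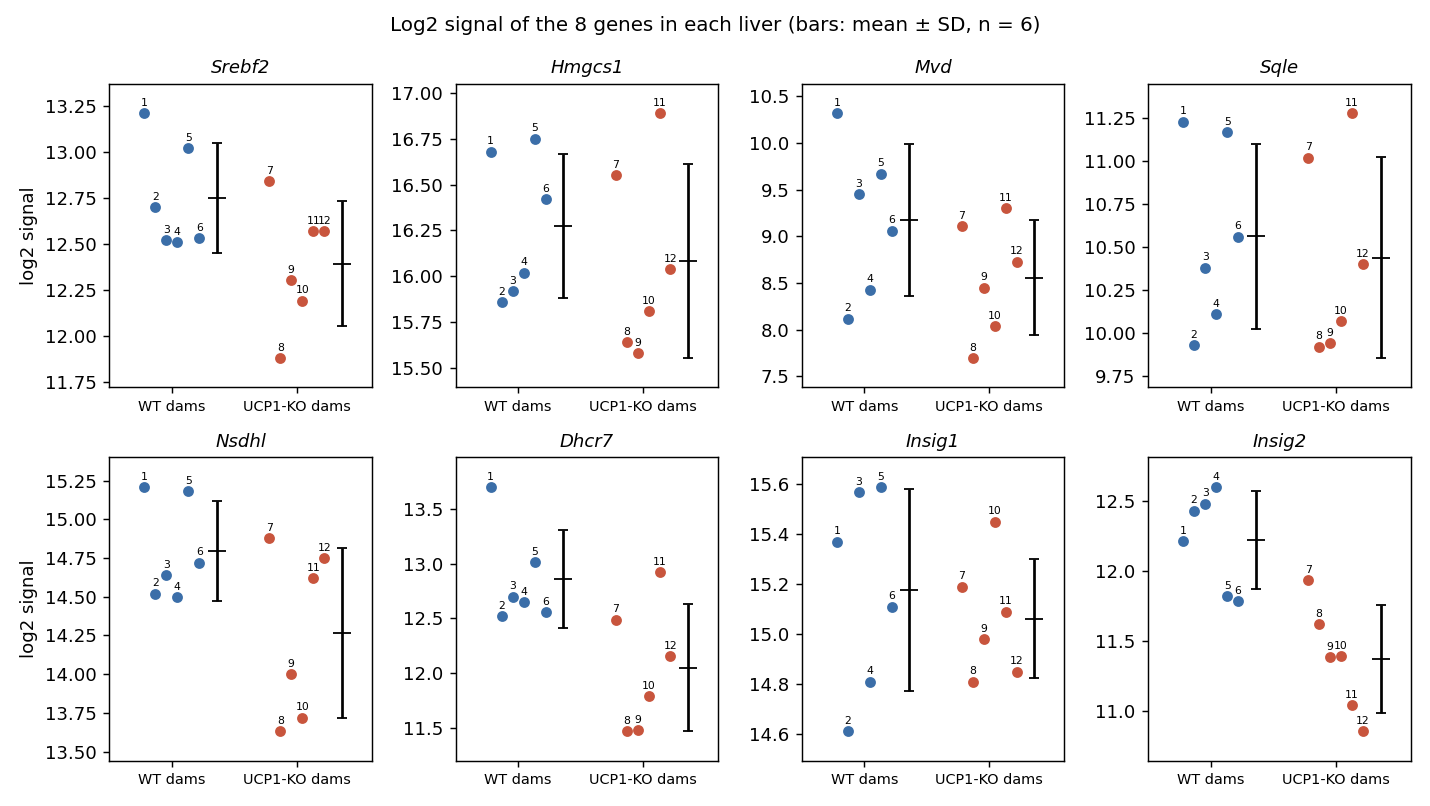
Log2 signal of the 8 genes (vertical axes, each with its own range) in the WT-dam group (blue) and in the UCP1-KO-dam group (red), 1 point per mouse with its array number and the mean ± SD (n = 6) beside each group. The groups overlap in every panel, least in Insig2, where only array 7 of the UCP1-KO-dam group reaches the WT-dam range.

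Srebf2, the gene of the transcription factor, lies on chromosome 15 (GRCm38.p6, 82147269 to 82205379). Its signal in the WT-dam group ran from 12.51 over a median of 12.62 to 13.21, and in the UCP1-KO-dam group from 11.88 over a median of 12.43 to 12.84. WT-dam arrays 1 and 5 were highest, at 13.21 and 13.02, and UCP1-KO-dam array 8 was lowest, so that 3 UCP1-KO-dam arrays lay below the whole WT-dam range and the other 3 within it. The means were 12.75 ± 0.30 and 12.39 ± 0.34 (SD, n = 6 each), a difference of -0.36 with a standard error of 0.17 (95% interval -0.72 to 0.01). Dropping WT-dam array 1 gave -0.26, dropping UCP1-KO-dam array 8 gave -0.25, and dropping WT-dam arrays 3 to 6, whose negative controls are brightest, gave -0.56.

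Hmgcs1, on chromosome 13 (119690351 to 119708260), encodes the cytosolic enzyme that makes HMG-CoA, an early step of the mevalonate stretch. It read 15.86 to 16.75 in the WT-dam group (median 16.22) and 15.58 to 16.89 in the UCP1-KO-dam group (median 15.92). The highest of all 12 livers was UCP1-KO-dam array 11, and the lowest were arrays 8, 9 and 10 of the same group. The difference of -0.19 (95% interval -0.67 to 0.29) was smaller than the spread within either group, whose standard deviations were 0.39 and 0.53. Dropping UCP1-KO-dam array 9 gave -0.09, and dropping array 11 of that group gave -0.35.

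Mvd, on chromosome 8 (122433596 to 122443422), encodes the decarboxylase that ends the mevalonate stretch of the pathway. Its signals of 8.12 to 10.32 in the WT-dam group (median 9.25) and 7.70 to 9.30 in the UCP1-KO-dam group (median 8.59) had the widest spread among the members in both groups (SD 0.81 and 0.62, n = 6 each). The difference was -0.62 (95% interval -1.31 to 0.08) and shrank to -0.39 without WT-dam array 1, the brightest liver for this gene. Array 2 of the same group, at 8.12, lay below 4 of the 6 UCP1-KO-dam arrays, which makes this the member whose WT-dam livers were least alike.

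Sqle, on chromosome 15 (59315092 to 59331193), encodes squalene epoxidase, the enzyme that oxidises squalene at a rate-limiting step. Offspring of WT dams had 9.93 to 11.23 (median 10.47) and the UCP1-KO-dam group 9.92 to 11.28 (median 10.24), so the ranges were nearly the same. The difference of -0.12 (95% interval -0.68 to 0.43) became 0.01 without WT-dam array 1, and dropping UCP1-KO-dam array 11 gave -0.29. The interval leaves room for changes of either sign, so the data do not show that the level was alike.

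Nsdhl, on the X chromosome (72918521 to 72958528), encodes a dehydrogenase that removes methyl groups from the sterol ring. The WT-dam livers read 14.50 to 15.21 (median 14.68) and the UCP1-KO-dam livers 13.63 to 14.88 (median 14.31). Within the UCP1-KO-dam group the signals split, with arrays 8, 9 and 10 at 13.63, 14.00 and 13.72, all below the WT-dam range, and arrays 7, 11 and 12 at 14.88, 14.62 and 14.75, inside it. The means of 14.80 ± 0.32 and 14.27 ± 0.55 (SD, n = 6 each) differed by -0.53 (95% interval -0.99 to -0.07).

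Dhcr7, on chromosome 7 (143823167 to 143848410), encodes the reductase that converts 7-dehydrocholesterol into cholesterol as the last step. It had 12.52 to 13.70 in the WT-dam group (median 12.67) and 11.47 to 12.92 in the UCP1-KO-dam group (median 11.97). All UCP1-KO-dam arrays except array 11, at 12.92, lay below the whole WT-dam range. The difference was -0.81 with a standard error of 0.25 (95% interval -1.33 to -0.29), a 1.75-fold lower mean, and -0.64 without WT-dam array 1.

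Insig1, on chromosome 5 (28071412 to 28078662), read 14.61 to 15.59 in the WT-dam group (median 15.24) and 14.81 to 15.45 in the UCP1-KO-dam group (median 15.04). No UCP1-KO-dam liver lay outside the WT-dam range. The difference of -0.11 (95% interval -0.49 to 0.26) was 0.07 without WT-dam arrays 3 to 6. Dropping WT-dam array 5 gave -0.03, dropping array 2 of that group gave -0.23, and adjusting for the negative control median gave -0.02.

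Insig2, on chromosome 1 (121304353 to 121332662), had the lowest difference of the members. Its signals were 11.78 to 12.60 in the WT-dam group (median 12.32) and 10.85 to 11.93 in the UCP1-KO-dam group (median 11.38). UCP1-KO-dam array 7, at 11.93, was above WT-dam arrays 5 and 6, at 11.82 and 11.78, and the other 5 UCP1-KO-dam arrays were below every WT-dam array. The means of 12.22 ± 0.35 and 11.37 ± 0.39 (SD, n = 6 each) differed by -0.85 with a standard error of 0.19 (95% interval -1.25 to -0.45), a 1.81-fold lower mean. Over the 22 alternatives in processing and in arrays, the difference stayed between -0.97 and -0.75. The RefSeq promoter table lists 3 start sites, and its 1 probe set does not separate the transcripts.

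The other genes of the pathway give the setting for these values. Of 15 further synthesis genes on the list, 11 were measured and 4 were not analysed here. Lower means in the UCP1-KO-dam group were found for 9 of the 11, with a median difference of -0.13, against 43.2% below 0 and a median of 0.03 over all probe sets. In limma's test 0 of the 11 passed, and 0 had an unadjusted p under 0.05, against 13.1% of all probe sets. The 4 with the smallest p were Lss, which closes squalene epoxide into the first sterol, with -0.34 (95% interval -0.78 to 0.09), the mevalonate kinase gene Mvk with -0.31, the sterol reductase gene Hsd17b7 with -0.37, and Pmvk, which adds the next phosphate to mevalonate, with -0.25 (limma adjusted p = 0.499 to 0.771). Single livers weighed on these values. Without UCP1-KO-dam array 8, Lss had -0.21, Mvk -0.15 and Hsd17b7 -0.10. Dropping array 9 of that group gave -0.04 for Pmvk. The 2 above 0, named after their values were seen, were Cyp51, the sterol demethylase gene, with 0.08, and Ebp, a sterol isomerase gene, with 0.03. The count of 9 below 0 became 6 without WT-dam array 1.

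**Figure D2:**
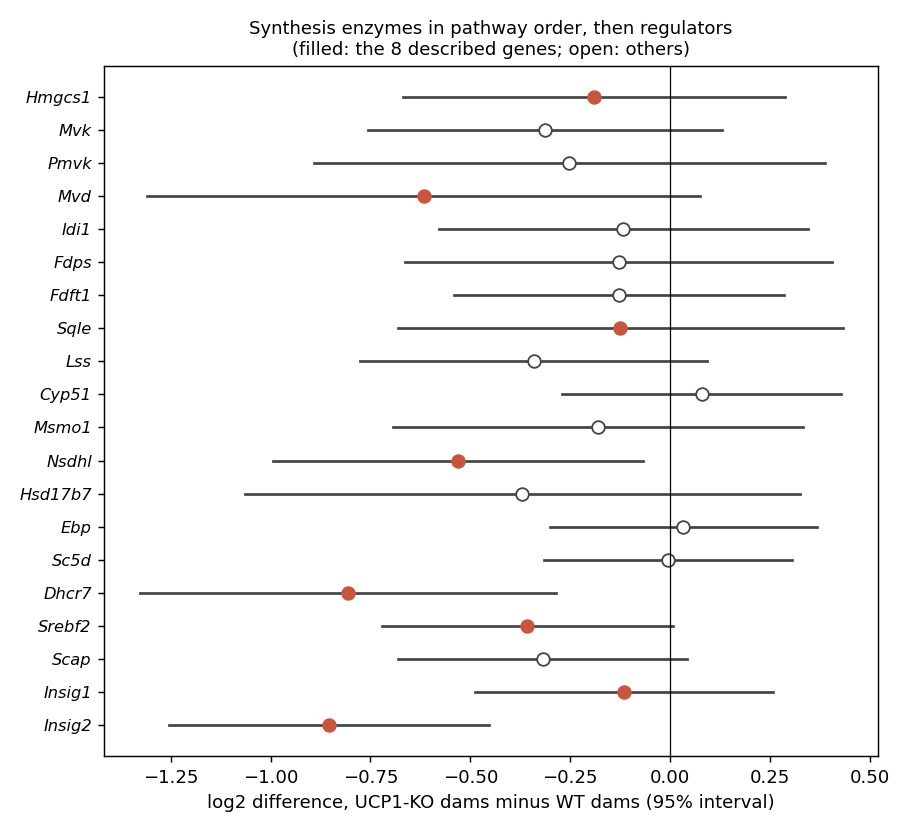
Log2 difference between offspring of UCP1-KO and of WT dams (horizontal axis) with the 95% interval from the limma fit, for the measured synthesis genes in the order of the pathway and then for regulators; filled points are the 8 described genes, open points other genes. The points run from -0.85 for Insig2 to 0.08 for Cyp51, and the intervals show the precision that 6 mice per group give, not a test of the 8 genes.

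Set against the other synthesis genes of the same liver, the enzyme members did not all differ by the same amount. The mean of the 11 other genes was 12.70 ± 0.33 in the WT-dam group and 12.54 ± 0.39 in the UCP1-KO-dam group (SD, n = 6 each), a difference of -0.16. After subtracting that mean on each array, the difference between groups was -0.65 for Dhcr7, -0.46 for Mvd and -0.37 for Nsdhl, but -0.03 for Hmgcs1 and 0.03 for Sqle. For Dhcr7 the subtracted values were 0.16 ± 0.25 and -0.49 ± 0.23, and 5 of 6 UCP1-KO-dam arrays lay below the WT-dam range. On this scale 0.0180% of all probe sets had every UCP1-KO-dam array below every WT-dam array, and 0 of the 8 members did. These values come from the contrast that chose the members and are a description.

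Within each group of mice the enzyme genes and Srebf2 rose and fell together. This variation between mice of one group was not used to choose the members. Each value was taken as its deviation from the mean of its group, and all 28 pairs of members were compared over the 12 arrays with an exact two-sided permutation within groups and Benjamini-Hochberg adjustment over the 28 pairs. All 15 pairs among Srebf2 and the 5 enzymes correlated positively, with Pearson's r of 0.75 to 0.97 (exact permutation adjusted p = 0.000648 to 0.0198). None of the 13 pairs with Insig1 or Insig2 passed (r = -0.37 to 0.62, exact permutation adjusted p = 0.102 to 0.651), and 0 of the 13 had an adjusted p under 0.05 by Spearman's rho. By rho, Insig1 had 0.36 to 0.66 with Srebf2 and the enzymes (exact permutation adjusted p = 0.0608 to 0.345). Its highest rho, with Mvd, was thus above the lowest rho of the 15 pairs, 0.63. Within the WT-dam group alone, Insig1 had r of 0.40 to 0.85 with Srebf2 and the enzymes. Within the UCP1-KO-dam group its r was -0.07 to 0.22. For Insig2 the values were -0.78 to -0.17 and -0.22 to -0.04, and the differences between groups were not tested.

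The closest pair was Hmgcs1 and Sqle, the enzymes of HMG-CoA and of squalene epoxide, with r = 0.97 and rho = 0.92 (exact permutation adjusted p = 0.000648 for r and 0.00292 for rho). It held within the WT-dam group (r = 0.94) and within the UCP1-KO-dam group (r = 0.995). Sqle was next most like Dhcr7 (r = 0.91) and Mvd (r = 0.90). Srebf2 was most like Nsdhl (r = 0.92, rho = 0.83, exact permutation adjusted p = 0.00133 for r) and least like Hmgcs1 (r = 0.75, rho = 0.63, adjusted p = 0.0198 for r and 0.0608 for rho, both exact permutation). By Spearman's rho 12 of the 15 pairs passed, with rho of 0.63 to 0.92. The 3 that did not were Srebf2 with Hmgcs1, Srebf2 with Sqle and Hmgcs1 with Nsdhl. Without the 2 arrays farthest from the median of the first gene, r was 0.67 to 0.95 over the 15 pairs, and within the groups alone it was 0.70 to 0.98 (WT dams) and 0.75 to 0.995 (UCP1-KO dams).

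**Figure D3:**
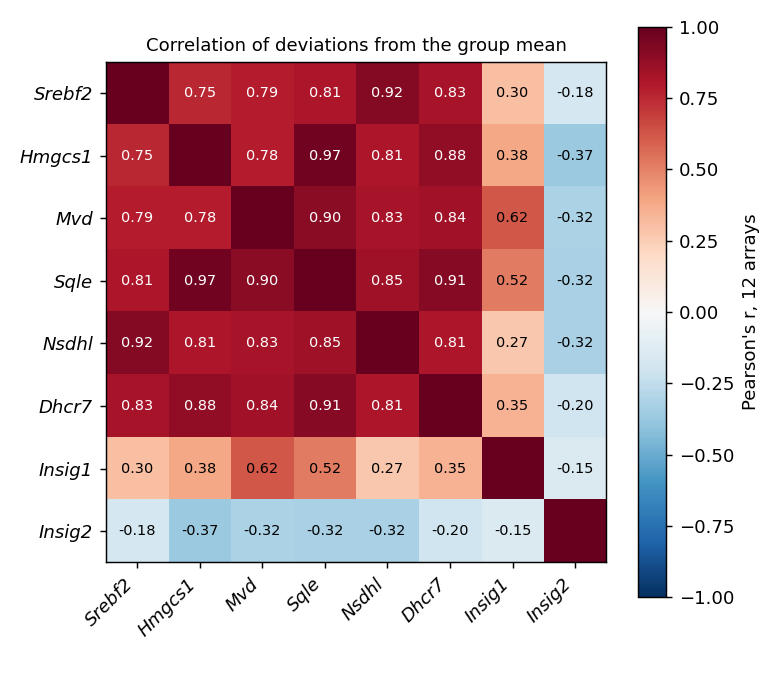
Pearson's r between deviations from the group mean for each pair of the 8 genes over 12 arrays, as colour (scale on the right) and as number. Srebf2 and the 5 enzymes form a block with r of 0.75 to 0.97, while the rows of Insig1 and Insig2 hold values from -0.37 to 0.62.

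Deviations are taken from the mean of each group, so each group holds livers above and below 0 by construction. The mean deviation of the 5 enzymes was 0.70 and 0.42 on WT-dam arrays 1 and 5 and 0.72 and 0.53 on UCP1-KO-dam arrays 11 and 7. It was lowest at -0.61 on UCP1-KO-dam array 8, -0.54 on WT-dam array 2, -0.40 on UCP1-KO-dam array 10, and -0.39 on both WT-dam array 4 and UCP1-KO-dam array 9. With the group means left in, the mean signal of the 5 enzymes was 13.43 and 13.15 on WT-dam arrays 1 and 5. It was 13.00 and 12.81 on UCP1-KO-dam arrays 11 and 7. The lowest were UCP1-KO-dam arrays 8, 10 and 9 (11.67, 11.88 and 11.89), followed by WT-dam array 2 at 12.19. These signals hold the contrast that chose the members and are a description. In the mean of the 5 enzymes, the lowest and highest livers of a group lay further apart than the groups did for any single enzyme. A range over single livers and a difference between group means are unlike measures, so they are not weighed against each other. Insig2 is not part of this mean. The negative control signal had r = -0.13 with the mean deviation of the enzymes. The marker lists had r of -0.28 to 0.16 with the enzymes' mean deviation, the Kupffer cell list -0.20. The 0.16 belonged to the adipocyte list, whose 4 measured genes never rose above the negative control median. The same held for 2 of 4 cholangiocyte, 3 of 5 lymphocyte and 3 of 5 exocrine pancreas markers. With Insig1, r ran from -0.59 (Kupffer cell) over -0.46 (stellate cell) to 0.16 (cholangiocyte). With Insig2 it ran from -0.35 (erythroid) to 0.51 (adipocyte). The part of any cell type in these values was not tested further, and in whole liver fewer cells of a type and less RNA per cell cannot be told apart.

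**Figure D4:**
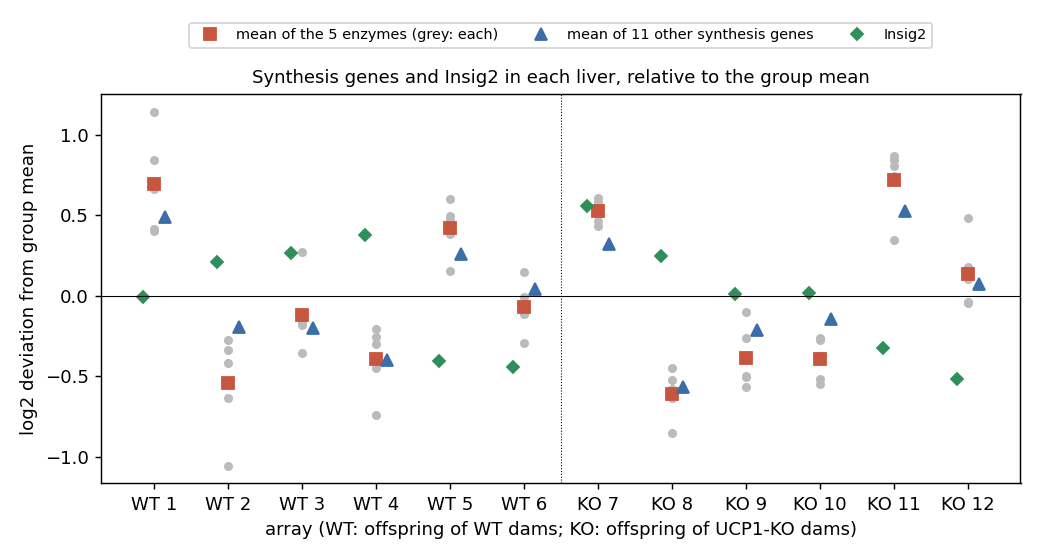
Deviation from the group mean (vertical axis, log2) on each of the 12 arrays: grey points are the 5 enzymes, red squares their mean, blue triangles the mean of 11 other synthesis genes and green diamonds Insig2. Red and blue follow each other from array to array, with highs on WT 1, WT 5, KO 7 and KO 11, while Insig2 is lowest on KO 12, WT 6 and WT 5.

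The synthesis genes that are not members shared the pattern. Of the 11, 8 had an r of at least 0.7 with the mean deviation of the 5 enzymes, a value reached by 1.40% of all probe sets, and their median r was 0.81 against -0.01 over all probe sets. The lowest was Hsd17b7 with 0.48. Among the 4 measured targets of SREBP-2 outside synthesis, Rdh11, a retinol dehydrogenase gene, had 0.87, Tmem97, a sterol-related membrane protein gene, 0.64, and Stard4, a sterol carrier gene, 0.20. The sterol transporter gene Npc1l1, with -0.75, lay below the negative controls on all 12 arrays, so its value is no measure of a transcript. Of 9 measured partners in SREBP processing and sterol sensing, 0 reached 0.7. The highest was Scap, the escort gene, with 0.59 (0.70 with Srebf2 alone), and the lowest Rnf145, a ubiquitin ligase gene, with -0.62.

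Among all 19564 other named probe sets, the 5 whose deviations were most like the mean of the 5 enzymes over the 12 arrays were Cenpm (r = 0.96), a centromere protein gene, the synthesis genes Msmo1 (0.94), Fdft1 (0.92) and Fdps (0.91), and Mocos (0.92), which encodes the molybdenum cofactor sulfurase. Cenpm had means of 6.60 and 6.11, within the range of the negative control medians of its groups, so its likeness is to a signal at background. So 3 of the 5 nearest genes were enzymes of the same pathway. The values are the highest of a large number and are given as a description. The genes most like Insig1 were Lkaaear1 (0.92), Slc22a27 (0.90) and Letmd1 (0.90), and those most like Insig2 were Olfr490 (0.91), Capn6 (0.91) and Ccdc130 (0.90). Of these 6, Lkaaear1, Slc22a27, Olfr490 and Capn6 had means of 2.96 to 5.16, under the negative control medians, so the likeness is to probe signals at background.

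The sequences before the start sites are shown for 4 members that moved together and for Insig1, none of whose pairs with them passed. Promoters come from RefSeq on GRCm38.p6, which held 11 start sites for 7 of the 8 members, and the 250 bases upstream of the start are printed 5′ to 3′ on the strand of the gene. Capitals mark matches, on either strand, to the SRE-1 type motif TCACNCCAC, to the CCAAT box (CCAAT), to the GC box (GGGCGG) and to the E-box (CACGTG). These motifs are letters that SREBP (SRE-1 and E-box), NF-Y and Sp1 are known to bind, and no 2 of them overlapped in the windows shown.
Hmgcs1, chr13:119690101-119690350, + strand: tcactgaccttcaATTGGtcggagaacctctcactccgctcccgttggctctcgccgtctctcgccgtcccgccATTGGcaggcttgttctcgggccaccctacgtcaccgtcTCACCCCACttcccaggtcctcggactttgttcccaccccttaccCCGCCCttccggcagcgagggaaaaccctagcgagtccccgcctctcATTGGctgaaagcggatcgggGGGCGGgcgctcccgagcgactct
Srebf2, chr15:82147019-82147268, + strand: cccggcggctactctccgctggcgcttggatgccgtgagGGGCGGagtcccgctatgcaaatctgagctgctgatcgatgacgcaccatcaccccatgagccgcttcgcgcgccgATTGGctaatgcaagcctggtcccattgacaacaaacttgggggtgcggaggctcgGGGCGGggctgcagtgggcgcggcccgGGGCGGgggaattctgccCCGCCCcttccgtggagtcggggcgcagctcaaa
Nsdhl, chrX:72918271-72918520, + strand: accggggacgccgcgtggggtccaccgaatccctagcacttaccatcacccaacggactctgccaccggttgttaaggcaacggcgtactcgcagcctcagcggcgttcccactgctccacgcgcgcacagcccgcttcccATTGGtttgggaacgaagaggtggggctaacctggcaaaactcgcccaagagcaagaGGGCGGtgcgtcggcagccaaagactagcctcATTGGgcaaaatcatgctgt
Insig1, chr5:28071162-28071411, + strand: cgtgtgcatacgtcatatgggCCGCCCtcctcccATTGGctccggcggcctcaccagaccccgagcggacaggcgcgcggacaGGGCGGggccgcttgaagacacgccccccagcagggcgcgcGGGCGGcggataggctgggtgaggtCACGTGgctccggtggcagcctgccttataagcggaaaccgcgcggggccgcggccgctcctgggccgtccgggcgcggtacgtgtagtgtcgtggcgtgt
Dhcr7, chr7:143822917-143823166, + strand, the first of its 3 start sites: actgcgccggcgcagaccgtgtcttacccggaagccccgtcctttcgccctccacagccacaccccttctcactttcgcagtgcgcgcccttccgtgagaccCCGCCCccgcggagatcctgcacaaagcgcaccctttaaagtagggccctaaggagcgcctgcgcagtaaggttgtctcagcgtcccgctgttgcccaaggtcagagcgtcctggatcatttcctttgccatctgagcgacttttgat

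The SRE-1 type motif was found in 1 of the 11 member windows, that of Hmgcs1, where it begins 137 bases before the start, and in 1.05% of 32851 promoter windows of the same length. A CCAAT box was found at 7 of the 11 start sites, against 33.8% of all windows, and the GC box at 9 of the 11, against 32.7%. All 7 members with an entry had a CCAAT box at 1 or more start sites. That count is per gene, and some genes have several windows, so it is not set against the share per window. The Hmgcs1 window holds the SRE-1 type motif together with 3 CCAAT boxes and 2 GC boxes, those of Srebf2 and Nsdhl hold CCAAT and GC boxes, and that of Insig1 holds an E-box in addition. The E-box is in 6.02% of all windows and in 2 of the 11 of members, the other being the window of a Dhcr7 start site that is not printed. The Dhcr7 window shown has 1 GC box, and the CCAAT boxes of this gene lie before the last of its start sites. Of the 3 Insig2 windows, not printed, 1 has 3 CCAAT boxes and the other 2 a GC box each. A match is a description of the letters, and a window without one says nothing of the factor.

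Insig2 was also set against genes of the circadian clock over the mice of each group. The clock repressor REV-ERB alpha, encoded by Nr1d1, is known to act on Insig2 in mouse liver. This relation was looked for after the data had been seen, and the p-values are adjusted over the 17 relations only, not over that search. Across 17 clock genes measured, the deviations of 8 had an adjusted p under 0.05 with those of Insig2 (exact two-sided permutation within groups, Benjamini-Hochberg adjusted over the 17 relations). The PAR-domain factor gene Dbp, a clock output that peaks in the day, had r = -0.80 and rho = -0.80 (exact permutation p = 0.00430, adjusted p = 0.0304). Nr1d2, which encodes the second REV-ERB, had r = -0.76 and rho = -0.87 (exact permutation adjusted p = 0.0304 and 0.0173). In the other direction, Clock and Arntl, the activators of the loop, had r = 0.78 and 0.75, and the repressor gene Nfil3 had 0.77 (exact permutation adjusted p = 0.0304 each). Tef, Bhlhe41 and Per3 made up the 8, with r of -0.74, -0.73 and -0.71. These 3 were dim: Tef lay above the negative control median on 2 of the 12 arrays, Bhlhe41 on 5 and Per3 on 8. Part of the count of 8 is therefore likeness to signal near background. Nr1d1 itself had r = -0.42 (exact permutation adjusted p = 0.274) and Npas2, an activator related to Clock, 0.49 (exact permutation adjusted p = 0.224).

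The call of these correlations depended on single arrays. Leaving out 1 array at a time, r with Dbp stayed between -0.90 and -0.76, with Nr1d2 between -0.87 and -0.70 and with Clock between 0.72 and 0.82. For the other 5 the size of r stayed at 0.62 or more, the smallest being -0.62 for Per3. Without arrays 7 and 12, the farthest for Insig2, r was -0.79 for Dbp, -0.77 for Nr1d2, 0.72 for Clock, 0.66 for Arntl and -0.61 for Bhlhe41. The count of 8 fell to 0 without WT-dam array 2, 3, 4 or 5 or UCP1-KO-dam array 12, and to 5 without UCP1-KO-dam array 8. It was also 0 after centring each array on its median and without WT-dam arrays 3 to 6, where 1 had an unadjusted exact permutation p under 0.05. Within groups r with Dbp was -0.95 in the WT-dam group and -0.66 in the UCP1-KO-dam group. The pairs of values were -0.94 and -0.58 for Nr1d2 and -0.94 and -0.62 for Bhlhe41, and the differences between groups were not tested. Dbp ran from 10.65 to 15.70 over the livers of WT-dam offspring and from 11.07 to 15.72 over those of UCP1-KO-dam offspring. The WT-dam livers lowest in Insig2, arrays 5 and 6, had the highest Dbp of their group, at 15.70 and 14.44, and UCP1-KO-dam array 12, the lowest in Insig2 of all, had 15.72.

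**Figure D5:**
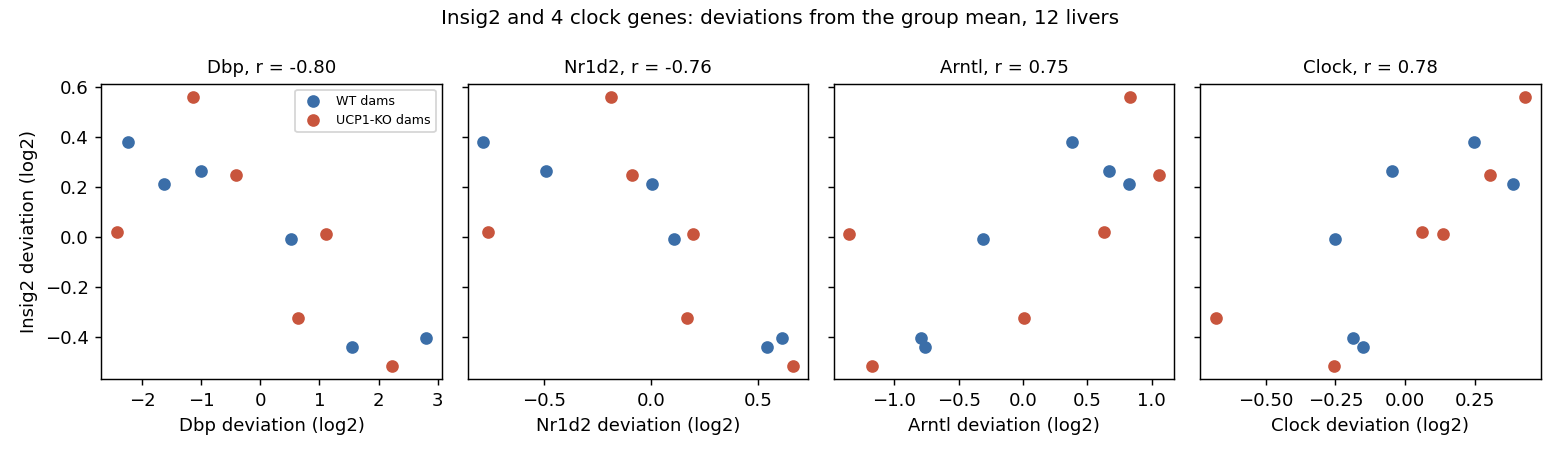
Deviation of Insig2 from its group mean (vertical axis, log2) against that of Dbp, Nr1d2, Arntl and Clock (horizontal axes, log2) in 12 livers, blue for WT dams and red for UCP1-KO dams. Insig2 is low where Dbp and Nr1d2 are high (r = -0.80 and -0.76) and high where Arntl and Clock are high (r = 0.75 and 0.78).

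Between the groups, the clock genes did not separate as a whole. Of the 17, 0 passed limma's test, 1 had an unadjusted p under 0.05, against 13.1% of all probe sets, and 6 lay below 0, against 43.2%. The 1 gene with an unadjusted p under 0.05 was Npas2, at 7.79 ± 0.65 in the WT-dam group and 6.19 ± 1.08 in the UCP1-KO-dam group (SD, n = 6 each, difference -1.60, limma adjusted p = 0.118). On UCP1-KO-dam arrays 8, 9, 11 and 12 its signal lay below the negative control median, so the size of this difference rests partly on values at background. Next by p were Nr1d2 with 0.36, Per2 with -0.42 and Arntl with -0.43, and Nr1d1 had 0.02 (limma adjusted p = 0.561 to 0.990). Per2 had 0.26 without WT-dam arrays 3 to 6, Arntl -0.16 without UCP1-KO-dam array 9, and Nr1d2 0.20 without WT-dam array 4. Dbp was 12.89 ± 1.96 and 13.50 ± 1.67, a difference of 0.60. With the Dbp signal as a covariate, an alternative chosen after seeing the data, the difference of Insig2 was -0.76, against -0.85 without it, and that of Dhcr7 -0.84. The time of day of sampling is not given in the sources used here, and its part in these values was not tested.

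The enzyme members were set against the same clock genes. None of the 17 clock genes reached an r of 0.7 in either direction with the mean deviation of the 5 enzymes, and their r ran from -0.63 for Clock to 0.50 for Tef, with 0.46 for Dbp. The signal of Tef was above the negative control median on only 2 of the 12 arrays. With Insig2, 3 reached 0.7 and 5 reached -0.7, against 0.941% and 0.905% of all probe sets. The difference between the enzymes and Insig2 in this was not tested.

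Genes next to cholesterol synthesis in liver metabolism were compared by the same lists. In SREBP processing and sterol sensing, 0 of 9 measured genes passed limma's test and 2 had an unadjusted p under 0.05, against 13.1% of all probe sets. Those 2 were Rnf145, a ubiquitin ligase gene of the sterol pathway, with 0.41 (95% interval 0.08 to 0.75), and Ubxn8 with 0.36. Scap had -0.32 (interval -0.68 to 0.04) and Rnf139, a ubiquitin ligase gene, 0.21 (limma adjusted p = 0.269 to 0.450 over these 4). Scap had -0.17 without UCP1-KO-dam array 8. The other 3 genes of this list, and 2 of the 6 listed SREBP-2 targets outside synthesis, were not analysed here. Of the 4 targets measured, 0 passed, and Stard4 had 0.25, Rdh11 -0.38 and Tmem97 -0.18 (limma adjusted p = 0.559 to 0.741), while Npc1l1 was below the negative controls. Stard4 had 0.14 without UCP1-KO-dam array 12. Rdh11 had -0.23 and Tmem97 -0.03 without WT-dam array 1, and Tmem97 had -0.65 without WT-dam arrays 3 to 6.

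Among 11 measured genes of cholesterol export, storage and the sterol receptor LXR, 0 passed and 2 had an unadjusted p under 0.05, against 13.1% of all probe sets. Those 2 were Nr1h3, the LXR alpha gene, with -0.42 (95% interval -0.74 to -0.11), and Npc2, the lysosomal sterol carrier gene, with 0.45 (interval 0.06 to 0.84). Abca1, the exporter of cholesterol to apolipoprotein, had 0.27, and Lipa, the lysosomal cholesterol esterase gene, 0.21 (smallest limma adjusted p = 0.232). Without WT-dam arrays 3 to 6, Npc2 and Lipa had 0.03 and 0.04. The 11 had r of -0.32 to 0.48 with the enzymes' mean.

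Fatty acid synthesis, which SREBP-1 governs and which the Insig proteins restrain as well, showed a partial likeness to the enzymes. Of 13 measured genes 3 had an r of at least 0.7 with the mean deviation of the 5 enzymes, against 1.40% of all probe sets: Acss2, which makes cytosolic acetyl-CoA, with 0.83, Thrsp, a lipogenic regulator, with 0.80, and the acetyl-CoA carboxylase gene Acacb with 0.72. Fasn, the fatty acid synthase gene, was the one that reached 0.7 with Insig1 (r = 0.76), against 0.712% of all probe sets. Between the groups 0 of 13 passed limma's test and 9 lay below 0, with a median of -0.24, against 43.2% below 0 and a median of 0.03 over all probe sets. Thrsp had -1.33, Acss2 -0.65, Fasn -0.54 and Elovl6, a fatty acid elongase gene, -0.36 (limma adjusted p = 0.263 to 0.512), and Fasn had 0.20 without WT-dam arrays 3 to 6. Leaving out single arrays, Acss2 reached -0.40, Fasn -0.29 and Elovl6 -0.20.

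Genes that respond to feeding and fasting were set against the enzymes in the same way. Of 8 measured, 0 reached an r of 0.7 in either direction with the enzymes' mean deviation, with a median of -0.15. With Insig2, r ran from -0.39 for Txnip to 0.77 for Pdk4, the kinase that spares pyruvate in fasting, with a median of 0.27. Only Pdk4 reached 0.7 with Insig2, as did 0.941% of all probe sets. It was named after its value was seen, and the relation was not tested. Between the groups 0 of 8 passed, and 2, Cpt1a and Pck1, had an unadjusted p under 0.05, against 13.1% of all probe sets. Cpt1a had 0.39, Pck1 0.58, Cyp4a14 0.52 and Fgf21 0.17 (limma adjusted p = 0.248 to 0.688), and Fgf21 lay below the negative controls. Cyp4a14 had 0.16 without WT-dam array 6.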

How the data were processed

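The deposited values are log2 signals per probe set and array. The submitters' processing notes name RMA and the Transcriptome Analysis Console. In general RMA corrects background, equalises the arrays and summarises probes, so a change of most genes would be reduced and differences of dim probe sets are compressed. Versions and genome build are not given in the sources used here. The 6640 control rows were left out. Gene symbols came from the platform annotation, which left 2634 probe sets unnamed. Where a symbol had several probe sets the brightest was used.

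A linear model was fitted to every probe set (limma 3.58.1, R 4.3.3; lmFit and eBayes, two-sided) with dam genotype as the only term and Benjamini-Hochberg adjustment over 22206 probe sets. The precision is limited by the 6 arrays per group. Correlations used deviations from group means, with exact permutation of arrays within groups (518400 arrangements). On simulated data for this comparison with 50 altered probe sets per size among 22206, calls were made for 10 at a 0.5 log2 change, for 42 at 1, for 49 at 2 and for 50 at 3. All sizes were altered in the same simulation, and its noise was drawn independently for each probe set. The larger changes ease the adjustment for the smaller ones, so the counts at 0.5 and 1 can overstate recovery in these data.

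The members, the lists and the named genes (per list the 4 of smallest p, and a few fixed ones, of which Scap and Nr1d1 were measured) were chosen with earlier results of these data known. Further genes are named where they make up a count, after their values were seen. The relation of Insig2 to the clock genes, the subtraction of the other synthesis genes and the Dbp covariate were chosen after seeing the data. Alternatives were further quantile normalization, centring, leaving out the dimmer 50% or dimmest 25% of probe sets, the mean over probe sets of a symbol, a robust fit with a mean-variance trend, array weights, the negative control signal as a covariate, leaving out WT-dam arrays 3 to 6, and leaving out each array.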

Additional observations from a re-analysis of the deposited data

Results flagged for a closer look

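Among the genes named, 4 of 74 groups of 6 arrays held a liver far from the others of its group (Dixon's test at the 95% level), where chance marks about 1 in 20. For Hsd17b7 this was WT-dam array 4 at 11.83, against 12.94 for the next. For Scap it was UCP1-KO-dam array 8 at 11.88, against 12.60, which is also the liver with the lowest enzymes. For Rdh11 it was UCP1-KO-dam array 11 at 12.40, against 11.05, the liver with the highest mean deviation of the 5 enzymes. For Npc1l1 it was UCP1-KO-dam array 8 at 4.52, against 3.93, below the negative controls. None of the 8 members was marked in either group.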

How the results depend on the processing

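The number of probe sets called by limma, 8, depended on the processing: it was 32 without the dimmer probe sets, 22 with a variance trend and robust estimation, 2 after adjusting for the negative control median and 0 without WT-dam arrays 3 to 6 (1561 at an unadjusted p under 0.05), and from 1 (without UCP1-KO-dam array 8) to 112 (without WT-dam array 2) when 1 array was left out. All 8 members stayed below 0 in 20 of 22 alternatives. The exceptions were Sqle without WT-dam array 1 (0.01) and Insig1 without WT-dam arrays 3 to 6 (0.07). The 15 correlated pairs remained the same 15 in all 12 fits that left out 1 array, which called 15 to 17, and 9 of them remained without WT-dam arrays 3 to 6, which leaves 2 arrays in that group. Every pair called beyond the 15 was a pair with Insig1 or Insig2. The 8 clock genes correlated with Insig2 became 0 after centring of each array on its median (8 at an unadjusted exact permutation p under 0.05) and 0 without WT-dam arrays 3 to 6 (1 unadjusted), and 0 to 9 when 1 array was left out (6 to 9 unadjusted). No other synthesis gene was called in any alternative. No paired analysis was possible because the groups share no replicate numbers.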
